A study of Mus musculus with 10 samples.

Results

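The gene-body sites described here are places inside long genes, away from their ends and promoters, where RNA polymerase II (Pol II) was called as a chromatin immunoprecipitation and sequencing (ChIP-seq) peak. A summit, the highest point of a called peak, was a member when the same library did not list it as a promoter peak, when it lay inside a gene with a span over 50000 bp, and when it was over 1000 bp from both ends of that gene. Gene spans were the longest given for a symbol in the deposited tables. Summits within 500 bp of each other, in any library, were joined into a site. The rule found 9861 of the 117973 summits in 6 libraries, which made 3917 of the 38310 sites of the whole series. These sites lay in 1026 of the 2108 genes over 50 kb that had a promoter peak in any library. The rule used position only, and no measured level or change.

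The libraries came from primary Th1 cells of Balb/c DO11.10 mice, the class of helper T cell known for interferon gamma. All of them were CD4+ T cells primed and expanded under Th1 conditions and then rested. There were 2 libraries of cells left without restimulation (NR), 2 of cells taken 30 min into it and 2 of cells taken at 2 h. The stimulus was anti-CD3 bound to the plate (5 µg/ml) with anti-CD28 in solution (2.5 µg/ml). The antibody against Pol II was 8WG16 (ab817). Whether the 2 libraries of a group are from different animals or cultures is not in the labels, so the spread behind each p-value is that of these libraries and may be technical. Libraries for H3K36me3 and an input library were not analysed here.

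Pol II initiates at a promoter, often pauses a short way downstream, and then elongates through the gene body to the termination region. A peak inside a gene body can lie at an internal promoter, an enhancer, a shorter gene within the long one, or a stretch where many elongating polymerases are found. T cell activation through CD3 and CD28 switches on NFAT, NF-kB and AP-1 factors, many of whose target genes have enhancers in the introns of long genes.

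Of the 3917 sites, 267 (6.82%) lay inside another RefSeq gene with a span of at most 50 kb, and 139 such genes held a site. A further 9 lay inside a RefSeq model of the same symbol that is shorter than the deposited span, and 18 (0.46%) lay at the annotated start of a RefSeq transcript or gene. No genome sequence or exon annotation of the build mm10 was used here, so sites were not split into introns and exons, and sequence is shown only for sites at annotated starts. The 4 windows below are RefSeq sequence (GRCm38.p6), 5′ to 3′, and run from 250 bases before to 50 bases after the start, 300 bases in all. They show an internal start of the long gene itself at a site shared by all 6 libraries, with 2 of the summits inside the window and the others outside it (Sema4d), an internal start whose site was found at 2 h and in neither NR library (Vrk1), and 2 starts of other genes within a long gene whose window holds TGANTCA, the core motif of AP-1 factors. Capitals mark that motif, which reads the same on both strands.
Sema4d, chr13:51756634-51756933, minus strand: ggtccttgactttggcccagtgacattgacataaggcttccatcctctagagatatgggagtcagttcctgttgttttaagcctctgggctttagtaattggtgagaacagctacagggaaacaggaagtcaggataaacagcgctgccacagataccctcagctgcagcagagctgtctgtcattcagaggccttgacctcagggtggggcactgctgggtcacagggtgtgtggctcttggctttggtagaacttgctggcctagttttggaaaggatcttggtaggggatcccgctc
Vrk1, chr12:106030467-106030766, plus strand: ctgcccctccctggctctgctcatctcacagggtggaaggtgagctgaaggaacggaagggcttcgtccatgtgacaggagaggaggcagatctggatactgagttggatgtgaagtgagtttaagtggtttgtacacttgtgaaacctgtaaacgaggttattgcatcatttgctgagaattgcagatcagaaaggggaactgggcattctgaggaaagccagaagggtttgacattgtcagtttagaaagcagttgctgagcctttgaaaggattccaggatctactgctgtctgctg
Gm11714 within Pitpnc1, chr11:107428000-107428299, plus strand: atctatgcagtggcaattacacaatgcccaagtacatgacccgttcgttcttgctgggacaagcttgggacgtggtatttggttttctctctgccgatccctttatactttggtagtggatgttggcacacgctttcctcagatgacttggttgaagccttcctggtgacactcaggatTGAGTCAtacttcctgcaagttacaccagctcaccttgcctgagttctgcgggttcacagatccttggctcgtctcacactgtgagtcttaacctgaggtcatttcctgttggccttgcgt
Gm30284 within Prkce, chr17:86444938-86445237, minus strand: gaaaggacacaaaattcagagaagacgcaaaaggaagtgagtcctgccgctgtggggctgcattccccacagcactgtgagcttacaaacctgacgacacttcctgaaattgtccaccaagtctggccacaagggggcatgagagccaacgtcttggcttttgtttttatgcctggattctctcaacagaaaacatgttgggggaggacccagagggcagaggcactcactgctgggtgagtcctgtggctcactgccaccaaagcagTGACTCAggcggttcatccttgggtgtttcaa
The motif was present in 3 of the 18 windows that held a site and in 2565 of 32851 windows of the same length (7.81%) in the RefSeq table. A match is a string of letters only.

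The Sema4d site lay 37.1 kb from the start of the gene, which encodes a semaphorin on the surface of T cells, and had a summit in all 6 libraries. The Vrk1 site, 20.3 kb into a gene for a nuclear kinase, had a summit in both 2 h libraries and in replicate 2 at 30 min, and in neither NR library. The site in Pitpnc1, a phospholipid transfer protein gene, was found in 5 libraries and was missing in NR replicate 1. The site in Prkce, the gene for protein kinase C epsilon, was found in 5 libraries and was missing in replicate 1 at 30 min. Both of those sites were thus already present in NR cells.

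Depth differed between libraries. The lowest local background under any promoter peak, a measure of depth in reads, was 0.659 in NR, 1.57 at 30 min and 2.48 at 2 h for replicates 1. For replicates 2 it was 5.92 in NR, 4.67 at 30 min and 5.55 at 2 h. Replicates 1 were thus shallower at every time and deeper at the later times, while replicates 2 were within a narrower range. Promoter peaks marked the labelled cell type: 9 to 10 of 10 Th1 markers had one in each library, against 0 to 1 of 7 B cell markers, 0 of 8 myeloid markers, 0 to 1 of 2 CD8 T cell markers and 1 of 5 stromal markers (Pecam1, which T cells also express).

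NR cells had 1288 and 1397 summits in the bodies of long genes (replicates 1 and 2), cells at 30 min 1148 and 2273, and cells at 2 h 1687 and 2068. Both 2 h libraries were above both NR libraries, while the 30 min libraries lay on either side of them. The mean was 1342.5 ± 77.1 in NR, 1710.5 ± 795 at 30 min and 1877.5 ± 269 at 2 h (SD, n = 2 each). An exact permutation test of a trend over the 3 times, two-sided, gave p = 0.289, and 0.0222 is the smallest p this test can give. In bulk cells, fewer cells with Pol II at a site and less Pol II per cell cannot be told apart.

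These summits made up 6.48% and 7.93% of all summits in NR, 7.49% and 9.76% at 30 min, and 8.40% and 9.51% at 2 h. The 2 h libraries were again above both NR libraries, and the share also went with depth, with replicate 2 above replicate 1 at each time (exact trend p = 0.2, adjusted 0.267 over 4 trend tests). Among replicates 2, the deeper libraries, the share was 7.93%, 9.76% and 9.51% in time order. With each list cut to the 15330 best-ranked summits, the share rose by 0.30 points per time step in place of 0.88 (exact permutation p = 0.4). The number then rose by 46.5 summits per step in place of 267.5 (exact permutation p = 0.4). Without summits inside RefSeq genes of at most 50 kb, the number rose by 238.75 per step (exact permutation p = 0.289). The share then rose by 2.17 points per step (exact permutation p = 0.178). That removal also lowers the library totals, so this share has a smaller base and cannot be compared with 0.88. The part of depth in these shares was not tested.

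The balance between long and shorter genes was lower in each restimulated library. The ratio of summits in genes over 50 kb to those in shorter genes was 1.38 and 1.23 in NR, 0.967 and 0.817 at 30 min, and 0.858 and 0.934 at 2 h. Both NR libraries were above all 4 restimulated ones, while the 30 min and 2 h libraries overlapped. Summits in the shorter genes numbered 931 and 1139 in NR, 1187 and 2783 at 30 min, and 1966 and 2213 at 2 h. The exact trend test gave p = 0.0889 (adjusted 0.267), so the ratio did not pass the test. With each list cut to the 15330 best-ranked summits, the change per time step was -0.05 in place of -0.20 (exact permutation p = 0.733). It was -0.40 with a margin of 5000 bp from gene ends (exact p = 0.0889). Without summits inside RefSeq genes of at most 50 kb it was -0.72 (exact p = 0.222). That removal also takes such summits out of the shorter-gene count, so this value cannot be compared with -0.20.

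**Figure D1:**
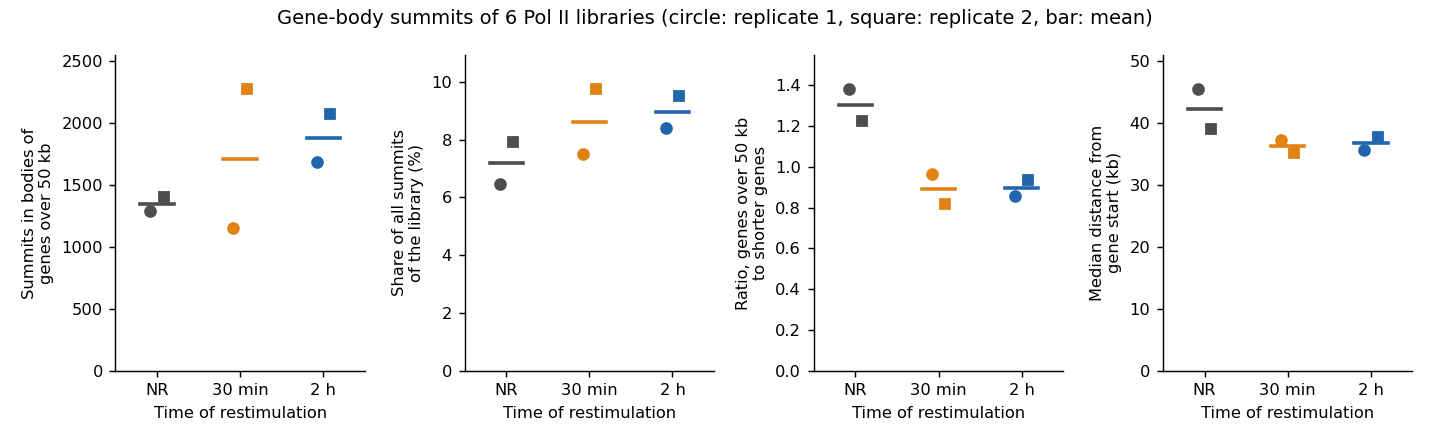
Gene-body summits in the 6 libraries by time: the number in genes over 50 kb, their share of all summits, the ratio to summits in shorter genes, and the median distance from the gene start in kb. Circles are replicate 1, squares replicate 2 and bars the mean. In the third panel the NR points (1.38 and 1.23) lie above all others, and in the first panel the 30 min points are the farthest apart (1148 and 2273).

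Summits were densest just behind the start margin. Sites numbered 72.8 per Mb of gene body between 1 and 5 kb from the start, 33.0 between 5 and 10 kb, 19.7 between 10 and 25 kb, and 7.73 beyond 200 kb. Because long genes are mostly distant sequence, most sites still lay far from a start, with a median of 35.6 kb. The median distance of the summits was 45.5 and 39.0 kb in NR, 37.2 and 35.2 kb at 30 min, and 35.6 and 37.7 kb at 2 h. Both NR libraries were above all restimulated ones, and the exact trend test gave p = 0.156 (adjusted 0.267). The change per time step was -2.78 kb, and -0.93 kb without NR replicate 1. NR replicate 1 stood apart at the far end, with 25.1% of its sites beyond 100 kb against 16.7% to 18.3% in the other libraries.

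**Figure D2:**
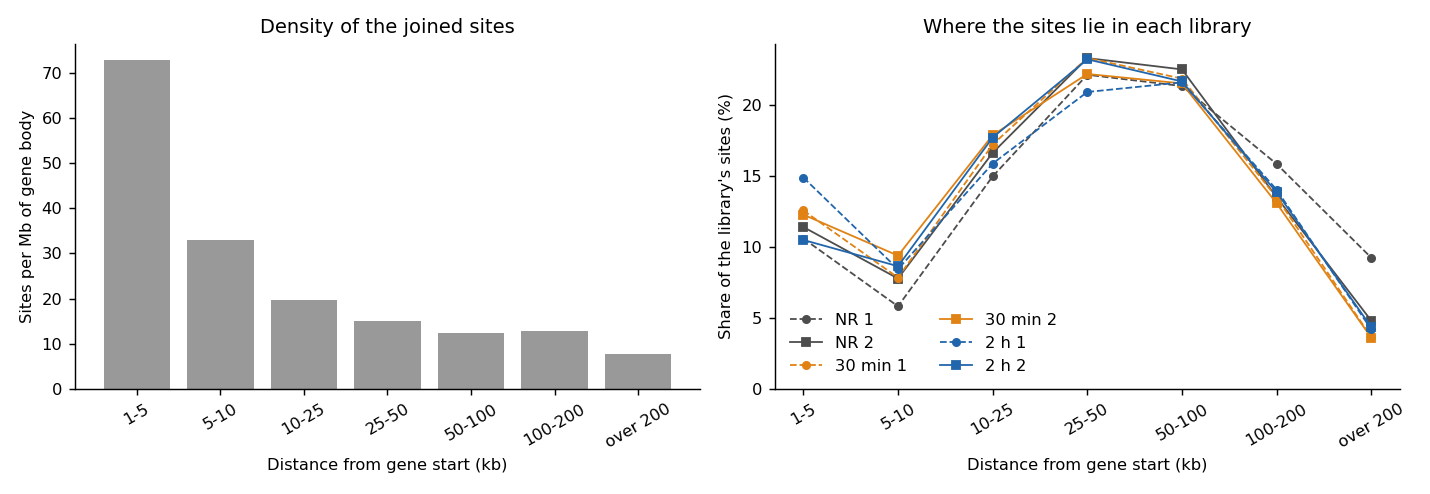
Left, sites per Mb of gene body by distance from the gene start in kb, over all 6 libraries, from 72.8 nearest the start to 7.73 beyond 200 kb. Right, the share of each library's sites in each distance bin (dashed with circles, replicate 1; solid with squares, replicate 2), where NR replicate 1 is highest beyond 200 kb.

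Within a library, gene-body summits ranked below promoter summits by the authors' −log10 q. The median gene-body summit stood at the 25.1st to 35.7th percentile of its own list, and the median promoter summit at the 63.4th to 74.2nd. Of the 3917 sites, 441 had a summit in all 6 libraries and 1738 in a single one. The summits of a site shared by all 6 usually lay close together, with a median spread of 165 bp.

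Most of the best-ranked sites shared by all 6 libraries were at small RNA genes inside long ones. Of the 6 with the highest median percentile, 4 lay in Tex14 (chr11:87427591-87555823), a germ cell gene, at 15.8, 21.2, 34.9 and 43.8 kb from its start. Each of these 4 sites overlapped a gene for U3, a small nucleolar RNA that Pol II transcribes and that acts in ribosomal RNA processing. Their median percentile was 98.3 to 99.5. The fifth site lay 25.6 kb into Hhat, an acyltransferase gene, within a gene that RefSeq classes as a small nuclear RNA, and the sixth 35.0 kb into Maml3, a Notch coactivator gene, where no other gene was annotated. The Maml3 site stood at the 95.7th to 98.6th percentile of every library. Maml3 had 23 sites, of which 7 were present in all 6 libraries.

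Of the 1026 genes with a site, 407 had a single site and 249 had 5 or more, and those 249 held 2509 (64.1%) of the 3917 sites. Bach2 (chr4:32238950-32563367), which encodes a repressor that holds back T cell differentiation, had the most, with 67 sites. It had 26 and 20 body summits in NR, 19 and 31 at 30 min, and 28 and 34 at 2 h. Both 2 h libraries were above both NR libraries. At 2 h, 5 Bach2 sites between 27.8 and 185.6 kb from the start were present in both libraries after being in neither NR library, and 2 were absent that had been in both. The summits per gene did not pass the test (log2 change 0.18, SE 0.34, limma adjusted p = 0.761).

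The next genes by number of sites were Prkch with 44, Foxp1 with 41, Ubac2 with 35, Cdk6 with 34, Ets1 with 33, Bcl2 with 31, and Gbp2b, Lef1 and Bcl11b with 27 each, of which the longest, Gbp2b, is described. Prkch, the gene for protein kinase C eta, had 11 and 16 body summits in NR, 19 and 24 at 30 min, and 17 and 24 at 2 h, and each restimulated library was above both NR libraries. Foxp1, a transcription factor gene tied to T cell quiescence, had 15 and 18, then 11 and 23, then 19 and 24. Cdk6, which encodes a kinase of the G1 phase, had 15 and 9, then 16 and 12, then 15 and 20, and the groups overlapped. Bcl2, the anti-apoptotic gene, had 8 and 9, then 9 and 13, then 13 and 17, with both 2 h libraries above both NR libraries.

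Some of the most densely occupied loci held other genes. In Ubac2, 14 of the 35 sites overlapped shorter genes, among them Gpr18 and Gpr183, which encode receptors of immune cells. In Gbp2b, 21 of the 27 sites overlapped shorter RefSeq genes of the cluster, among them Gbp3, Gbp5 and Gbp7, interferon-induced GTPases, and the shorter RefSeq model of Gbp2b itself. Gbp2b had 3 and 4 body summits in NR, 6 and 19 at 30 min, and 5 and 11 at 2 h. These sites cannot be assigned to the long gene rather than to the shorter ones.

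**Figure D3:**
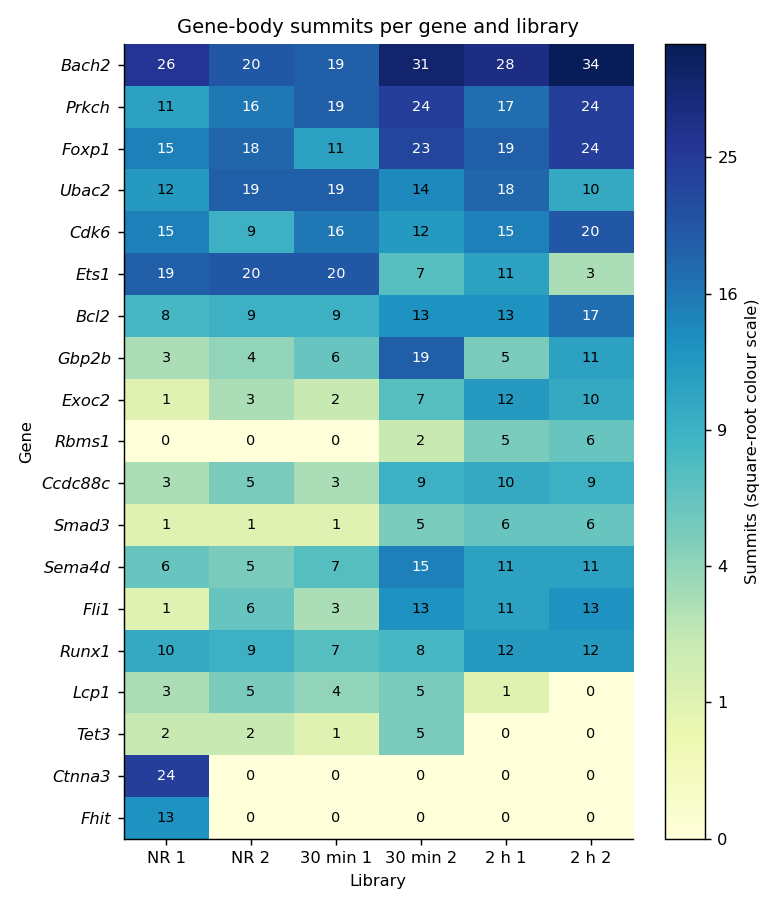
Gene-body summits per gene (rows) in each library (columns), with the number in each cell and colour on a square-root scale. Ets1 has 19 and 20 in NR and 11 and 3 at 2 h, Exoc2 has 1 and 3 and then 12 and 10, and Ctnna3 has 24 summits in NR replicate 1 and 0 elsewhere.

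Sites were followed by presence, with a site called gained where both libraries of the later group had a summit and neither of the earlier group did, and lost in the opposite case. At 30 min, 95 sites (2.43%) were gained over NR, where 1.53% of all sites in the series were gained, and 54 (1.38%) were lost, where 1.13% were. At 2 h, 351 sites (8.96%) were gained over NR, against a background of 6.05%, and 90 (2.30%) were lost, against 1.88%. From 30 min to 2 h, 124 sites (3.17%) were gained, against 2.09%, and 34 (0.868%) were lost, against 0.574%. The gene-body sites of shorter genes had 2.27% gained and 1.72% lost at 30 min, and 9.001% gained and 2.63% lost at 2 h. With 2 libraries against 2, no permutation can give a p under 0.333, so these counts carry no test. With every list cut to 15330 summits, 158 sites were gained at 2 h over NR and 61 over 30 min, and 63 were lost from 30 min to 2 h.

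Many sites gained at 2 h had a summit in a 30 min library. Of the 351 sites gained at 2 h, 56 were in both 30 min libraries, 187 in one of them and 108 in neither. Of those 187, 176 were in replicate 2, the deeper library, and 11 in replicate 1. Of the 95 sites gained at 30 min, 56 were in both 2 h libraries, 24 in one and 15 in neither. Of the 745 sites present in both NR libraries, most persisted, with 492 (66.0%) in both 30 min libraries and 539 (72.3%) in both 2 h libraries. Sites in a single NR library are not in this count.

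The median distance of gained sites from the start was 41.3 kb at 30 min and 40.8 kb at 2 h, beside 35.6 kb for all sites, and these values were compared as a description only. Between 1 and 5 kb, 52 of 614 sites (8.47%) were gained at 2 h, and between 100 and 200 kb 59 of 528 (11.2%). At 30 min the shares in those bins were 1.47% and 2.46%. The farthest site gained at 30 min lay 666.5 kb into Zbtb20, a zinc finger repressor gene, followed by sites 242.7 kb into Jazf1, 237.7 kb into Hdac4, 194.7 kb into Ralgps1, 170.2 kb into Foxp1 and 154.1 kb into Exoc2. At 2 h the farthest lay 512.1 kb into Inpp4b, a phosphoinositide phosphatase gene, and others lay 463.8 kb into Foxp1, 301.6 kb into Rere, 280.2 kb into Itpr2 and 260.3 kb into Dym. Some of these calls were near the floor of a list. At 30 min the Zbtb20 site stood at percentile 0.541 in replicate 1 and 31.5 in replicate 2. The other 30 min sites named stood at 6.74 to 27.3 and 24.8 to 54.6. At 2 h the Itpr2 site stood at 0.0797 and 1.85, and the others named at 3.83 to 25.2 and 21.8 to 37.9.

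Many lost sites lay under a promoter peak in the group that lacked their summit. A library lists 1 summit for each peak, so a site inside a wide promoter peak has no summit of its own. Of the 54 sites lost at 30 min, 27 (50%) lay inside a promoter peak of at least 1 of the 30 min libraries. Of the 90 lost at 2 h, 51 (56.7%) lay inside a promoter peak of at least 1 of the 2 h libraries, and 39 of these inside one in both. Of the gained sites, 0 of 95 and 1 of 351 lay inside an NR promoter peak. Among all sites without a summit in a library, promoter peaks covered 0.826% and 3.42% in NR, 2.13% and 22.6% at 30 min, and 8.11% and 20.6% at 2 h. The lost sites under a promoter peak had a median distance from the start of 3.83 kb at 30 min and 6.67 kb at 2 h, and the other lost sites 56.6 and 59.0 kb. Promoter peaks over 5 kb numbered 69 and 106 in NR, 139 and 486 at 30 min, and 281 and 396 at 2 h. The part of depth in this broadening was not tested.

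**Figure D4:**
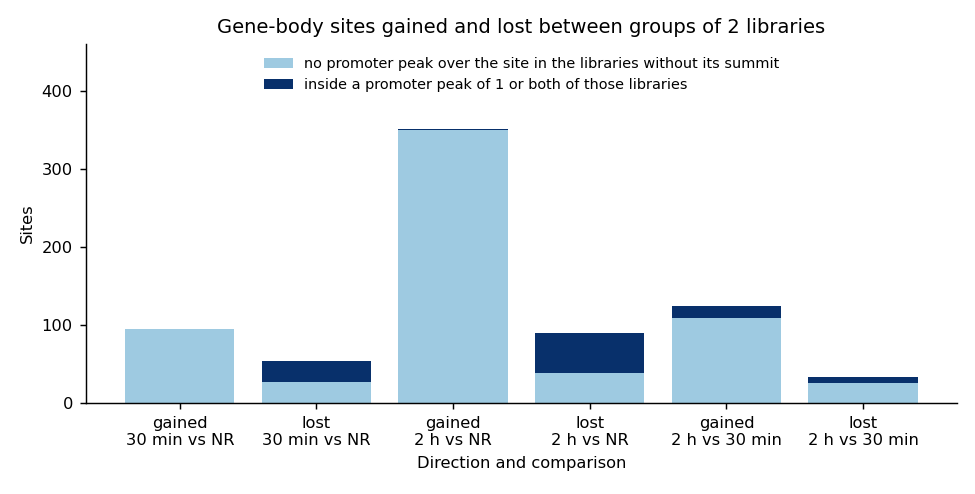
Number of gene-body sites gained or lost in each comparison, split by whether a promoter peak covered the site in a library of the group without its summit. Of the lost sites, 27 of 54 at 30 min and 51 of 90 at 2 h were covered, against 0 of 95 and 1 of 351 of the gained sites.

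Ets1 (chr9:32696042-32757820, plus strand), which encodes a transcription factor of T cell development and Th1 function, was the clearest case. It had 33 sites in 61.8 kb, or 53.4 per 100 kb. It had 19 and 20 body summits in NR, 20 and 7 at 30 min, and 11 and 3 at 2 h. In the same order, promoter peaks covered 8195 and 11123 bp of the gene, then 9525 and 29600 bp, then 19801 and 44007 bp. Each library with a promoter peak longer than in both NR libraries had fewer body summits than either of them. The 8 sites lost at 2 h were all inside a promoter peak of a 2 h library. Of the 33 sites, 26 lay under the promoter peak in replicate 2 at 2 h. The summit count did not pass the test at 2 h (log2 change -1.80, SE 0.61, limma adjusted p = 0.302).

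Lcp1 (chr14:75131123-75230842), which encodes the actin-bundling protein L-plastin, showed the same layout. It had 3 and 5 body summits in NR, 4 and 5 at 30 min, and 1 and 0 at 2 h. Promoter peaks within its span covered 0 and 303 bp, then 0 and 6958 bp, then 6303 and 21112 bp, and in replicate 2 at 2 h they covered all 11 of its sites. Satb1, a chromatin organiser of T cells, had 6 and 6, then 11 and 3, then 5 and 7 body summits, while promoter peaks covered 4364 and 7434 bp, then 5813 and 21554 bp, then 14516 and 21997 bp. The 7 Satb1 summits in replicate 2 at 2 h were above both NR libraries, although its promoter cover was longest there. Ubac2 had 12 and 19 body summits in NR, 19 and 14 at 30 min, and 18 and 10 at 2 h. In replicate 2 at 2 h, 28922 bp of Ubac2 lay under promoter peaks, with 18 of its 35 sites inside them. The 18 summits in replicate 1 at 2 h lay between the NR values. Lcp1, Satb1 and Tet3 were chosen after their values were seen.

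Other losses were not under a promoter peak. Inpp4b lost 3 sites at 2 h and Thada, a gene tied to metabolic regulation, lost 3, and none of these lay in a promoter peak of a 2 h library. Cyth1, the gene for cytohesin 1, an exchange factor in T cell adhesion, lost 3, of which 1 was covered. Tet3, which encodes a 5-methylcytosine dioxygenase, had 2 and 2 body summits in NR, 1 and 5 at 30 min, and 0 and 0 at 2 h, and none of its 4 sites was covered in any library. The Tet3 change at 2 h was a log2 value of -1.82 (SE 0.48, limma adjusted p = 0.171). Inpp4b, Thada and Cyth1 had the most lost sites after Ets1 and were likewise named after their values were seen.

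Exoc2 (chr13:30813918-30974047, minus strand), which encodes a subunit of the exocyst, gained the most sites. It had 1 and 3 body summits in NR, 2 and 7 at 30 min, and 12 and 10 at 2 h. Both 2 h libraries were above all others, and 8 of its 13 sites were gained at 2 h, from 40.8 to 156.3 kb from the start.  The next gene beyond its end, 46.9 kb away, is Irf4, a transcription factor gene induced by T cell receptor signals, and the gained sites lay 50.8 to 166.2 kb from Irf4. Whether they act on either gene was not measured. The log2 change in summit count at 2 h was 1.84 (SE 0.44), which did not pass the test (limma adjusted p = 0.128).

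**Figure D5:**
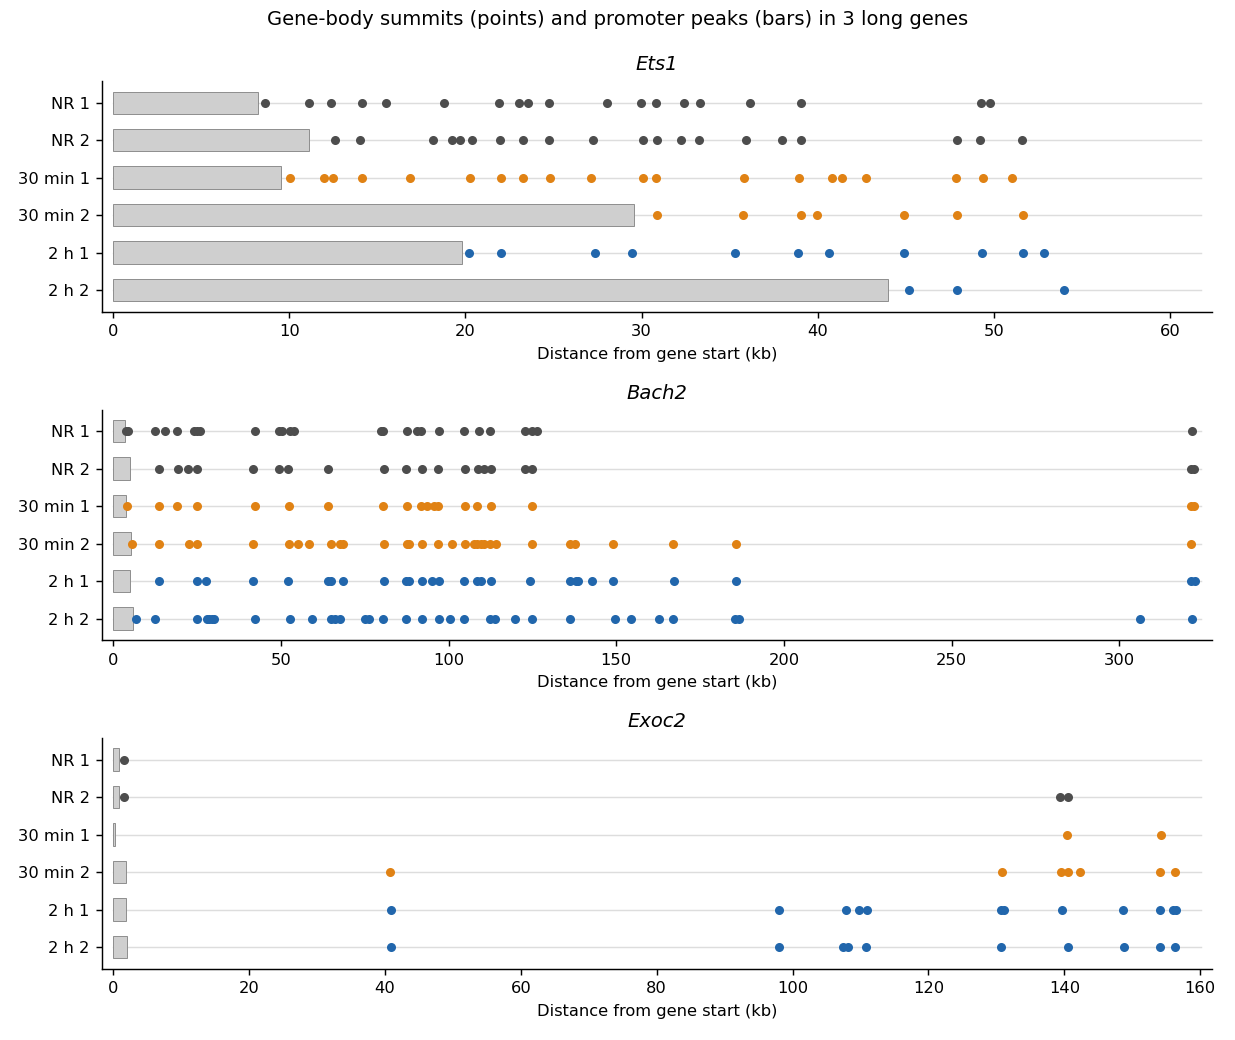
Gene-body summits (points) and promoter peaks (bars) along Ets1, Bach2 and Exoc2 in the 6 libraries, by distance from the gene start in kb. In Ets1 the promoter peak covers 44007 bp in replicate 2 at 2 h and 3 summits remain, while in Exoc2 the 2 h libraries have 12 and 10 summits far from a short promoter peak.

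Rbms1, the gene for an RNA-binding protein, had 0 and 0 body summits in NR, 0 and 2 at 30 min, and 5 and 6 at 2 h. Its 5 gained sites lay 2.87 to 26.1 kb from the start. The 2 h libraries were above all others, and the gained sites lay in the first part of the gene. Smad3, a transcription factor of the TGF-beta pathway, had 1 and 1, then 1 and 5, then 6 and 6, and gained 4 sites from 2.91 to 79.6 kb. Ccdc88c had 3 and 5, then 3 and 9, then 10 and 9, and 9 of its 13 sites lay in another annotated gene. Rgs3, a regulator of G protein signalling, had 3 and 5, then 3 and 8, then 9 and 10. Pecam1, an adhesion receptor gene, had 3 and 5, then 4 and 6, then 11 and 10.

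At 30 min the genes with the most gained sites were Gbp2b with 3 and Hdac4, Bcl2, Abtb2, Cobll1, Mtmr3, Sema4d and Mfhas1 with 2 each. Mfhas1, whose protein is linked to Toll-like receptor signalling, had 0 and 0 body summits in NR, 2 and 3 at 30 min, and 4 and 3 at 2 h, and no restimulated library overlapped NR. Sema4d had 6 and 5, then 7 and 15, then 11 and 11, with every restimulated library above NR. Hdac4, a class IIa histone deacetylase gene, had 1 and 2, then 3 and 5, then 3 and 5. Mtmr3, a phosphoinositide phosphatase gene, had 2 and 1, then 3 and 8, then 5 and 3. Abtb2 had 1 and 1, then 3 and 5, then 2 and 4, and Cobll1 had 1 and 1, then 2 and 4, then 6 and 4.

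Across genes, limma was fitted to log2(body summits + 1) per gene, with each library centred on its mean over 631 genes with a summit in all 6. At 30 min against NR, 0 of 784 long genes passed an adjusted p under 0.05, as did 0% of the 2284 genes of any span, with 33 long genes higher and 6 lower at an unadjusted p under 0.05 (4.97% of long genes, beside 6.52% of all genes). At 2 h against NR, 0 of 784 passed, where 0.0438% of all genes did, with 77 higher and 13 lower at an unadjusted p under 0.05 (11.5%, beside 11.9% of all genes). After centring, the median log2 change at 2 h against NR was still 0.177 over long genes and 0.262 over all genes. More rises than falls are thus not particular to long genes. At 2 h against 30 min, 0 of 784 passed, with a background of 0%, and 40 were higher and 12 lower at an unadjusted p under 0.05 (6.63%, beside 7.53% of all genes). The smallest adjusted p among long genes was 0.0977 at 2 h, shared by Rbms1 (log2 change 2.46), Rassf5 (2.42), Mfhas1 (1.92) and Lrrfip1 (1.78). Rassf5 encodes RAPL, a partner of Rap1 in lymphocyte adhesion, and had 0 and 0, then 1 and 5, then 4 and 7 body summits. A Rassf5 site with summits in both 2 h libraries lay inside a shorter RefSeq gene, and the other sites there had a summit in replicate 2 at 2 h only. Lrrfip1, a nucleic acid sensor gene, had 1 and 2, then 3 and 6, then 10 and 8.

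Gene lists were described by their counts, beside the same over all long genes, of which 48.7% had a site. Of 31 long genes among lymphocyte transcription factors, 22 had a site, with 315 sites in all, of which 20 (6.35%) were gained and 19 (6.03%) lost at 2 h, against 8.96% and 2.30% over all sites. Ets1 alone gave 8 of these 19 losses. In this list Fli1, an ETS factor gene, had 1 and 6, then 3 and 13, then 11 and 13 body summits, and both 2 h libraries were above both NR libraries. Runx1, the gene for a lymphocyte transcription factor, had 10 and 9, then 7 and 8, then 12 and 12, and gained 3 sites at 2 h while losing 1. Nfatc1, which encodes NFAT2 and was named after its values were seen, had 0 and 2, then 7 and 10, then 10 and 4, with every restimulated library above NR.

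Of 16 long genes of the T cell receptor and costimulation, 13 had a site, and 7 of their 127 sites were gained and 4 lost at 2 h. Of 11 long NF-kB and NFAT genes, 9 had a site, and 3 of 73 sites were gained and 0 lost. Among 26 adhesion and cytoskeleton genes, 19 had a site, with 9 of 102 gained and 2 lost. Among 33 chromatin regulators, 22 had a site, with 6 of 75 gained and 6 lost. Cytokine receptor and signalling genes had 18 sites in 7 of 8 long genes, of which 1 was gained. Each list's share of gained sites at 2 h was between 4.11% and 8.82%, below the 8.96% over all long genes. Lost sites at 2 h were 8% among chromatin regulators, 6.03% among lymphocyte transcription factors and 3.15% in the T cell receptor list. They were 1.96% among adhesion and cytoskeleton genes and 0% in the NF-kB and cytokine lists, against 2.30% over all long genes.

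NR replicate 1, the shallowest library, had 406 sites found in no other library, 32.4% of its 1255 sites, against 6.69% in NR replicate 2. Of these, 87 (21.4%) lay in 10 genes with 5 or more of them, and the others were spread over further genes. The most were in Ctnna3. This gene, which encodes an alpha catenin of heart and testis and spans 1573.6 kb, had 24 body summits in NR replicate 1 and 0 in each other library. Fhit, a tumour suppressor gene over a fragile site, had 13 in that library and 0 in the others. The single-library sites of NR replicate 1 had a median percentile of 24.3 in its list, and its shared sites 45.6. In the other libraries the median percentile was 11.5 to 17.6 for single-library sites and 26.6 to 41.0 for shared sites. The single-library sites of NR replicate 1 lay at a median of 62.9 kb from the start, against 17.8 to 37.2 kb for those of the others. Ctnna3 and Fhit were named after their values were seen. No gained or lost call rests on these sites alone, since a call needs both libraries of a group.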

How the data were processed

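Pol II was measured in 6 ChIP-seq libraries in 3 groups of 2. The submitters' processing notes name the build mm10 and the tools BWA 0.7.13, Picard 1.119 and MACS2 2.1.0, without role or order. The authors called peaks per library and deposited all summits, with −log10 q, and the promoter peaks within 1000 bp of a start. Per the file headers, the deposited promoter tables give the pileup signal, a fold enrichment ratio and −log10 p and q. The pileup was whole in replicates 1 and scaled in replicates 2, where 1 read counted 0.577 (NR), 0.707 (30 min) and 0.65 (2 h). The smallest −log10 q in the authors' lists was 1.31. These values were used only within a library. Read totals are not given, so depth was read from the lowest local background, (pileup + 1) / enrichment - 1, per read.

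Presence of sites was compared between groups as counts, per-library values with an exact permutation trend test (90 assignments, Benjamini-Hochberg over 4), and summits per gene with limma 3.58.1 in R 4.3.3 (pseudocount 1, summits in at least 2 libraries, Benjamini-Hochberg). The code was tested on simulated data. Named genes were the 8 with the most sites, those passing limma or, in open places, with the most gained sites, list members with 3 or more gained sites, and the best-ranked and farthest gained sites; some items that this rule names are not reported here. Members and gene lists were chosen with earlier results of these data known. Symbols matched RefSeq GRCm38.p6 for nested genes and starts. Alternatives are in the closing section.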

Additional observations from a re-analysis of the deposited data

How the results depend on the processing

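Presence is a threshold call in libraries of unequal depth, replicates 1 being the shallower at each time, and 2 libraries a group allow no test of a single site. The direction of the 4 per-library trends held under every alternative run, and none passed the exact permutation test (p from 0.0667 to 0.733). The size of the ratio trend moved from -0.20 to -0.05 with lists of equal length and -0.40 with a margin of 5000 bp. The -0.72 without summits in shorter genes cannot be compared with these, since the shorter-gene count itself loses those summits. The other trends per step were also smaller with lists of equal length. They were 46.5 in place of 267.5 summits, 0.30 in place of 0.88 points of share, and -1.09 in place of -2.78 kb. Without summits in shorter genes the number rose by 238.75 per step. The share trend of 2.17 points in that setting is over smaller library totals and cannot be compared with 0.88. A covering promoter peak counted as presence and the removal of summits in shorter genes were chosen after seeing the data. With covering peaks counted, 150 sites were gained and 27 lost at 30 min, and 40 lost at 2 h. With lists of equal length, 158 were gained at 2 h over NR, and 61 gained and 63 lost from 30 min to 2 h. Joining within 1000 bp gave 31 sites lost at 30 min and 21 lost from 30 min to 2 h, and a margin of 5000 bp gave 32 lost at 30 min.

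With 1 library left out, the other library of its group alone decides presence, so counts are larger by construction. Gained sites then ranged from 107 to 1151 (30 min over NR), 376 to 1015 (2 h over NR) and 171 to 500 (2 h over 30 min), and lost sites from 138 to 478, 139 to 542 and 60 to 652.

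The limma counts of long genes depended on the settings. Without centring, 17 genes were higher and 1 lower at 30 min, 28 and 1 at 2 h, and 17 and 5 at 2 h against 30 min. With genes having a summit in at least 1 library, 1 was higher at 30 min, 16 higher and 3 lower at 2 h, and 1 lower at 2 h against 30 min. With lists of equal length, 1 was higher at 2 h. With 1 library left out, 0 to 3 were higher and 0 to 1 lower at 30 min, 0 to 13 and 0 to 4 at 2 h, and 0 to 1 lower at 2 h against 30 min. The lone library of a group is then assumed to vary like the others, and the highest counts at 2 h (13 and 4) came without NR replicate 2. The cause was not tested. Centring removed shifts of -0.22 to 0.20 (log2).

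With the replicate number as a block, 0 long genes passed limma in any comparison, and the exact permutation p of the trends was 0.222 for summits, 0.111 for their share, 0.167 for the ratio and 0.222 for the distance. Deviations of same-numbered libraries correlated at 0.153, 0.079 and 0.318 between the pairs of groups, so the pairing was not taken as shown. Site overlap (sites shared by 2 libraries over sites in either) was 0.395 within NR, 0.281 within 30 min and 0.456 within 2 h. Across times it was 0.284 to 0.397 among replicates 1 and 0.411 to 0.527 among replicates 2. Libraries of a group were thus not always the most alike, and replicate number also went with depth.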
